A study of Mus musculus with 24 samples.

Results

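Carboxylesterases are serine hydrolases that cut ester, amide and thioester bonds, and 7 mouse genes of the family are described here: Ces1d, Ces1e, Ces1f, Ces1g, Ces2a, Ces2c and Ces2e. They were chosen by an earlier result of the same libraries, the rise of Ces1g over DMSO with both peptides at 24 h, together with its relatives. The 7 genes were matched by symbol and Entrez ID among 36528 gene IDs, which hold 20 carboxylesterase (Ces) genes in all. The values of the 24 h peptide groups against DMSO therefore describe the choice and carry no test below.

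The enzymes sit mostly in the lumen of the endoplasmic reticulum. In liver and intestine they hydrolyse drugs, prodrugs and other foreign esters, and several also act on triglycerides, diglycerides and cholesteryl esters. In the small intestine they are best known from absorptive enterocytes, where they meet dietary lipid and swallowed compounds. Nuclear receptors for foreign compounds and for lipids are known to act on Ces genes in liver.

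The RNA came from mouse small-intestine organoids, cultures of gut epithelium that hold stem cells and differentiated descendants, and was polyadenylated and sequenced. Each of 6 groups holds 4 libraries: DMSO (vehicle), dFz7-21 and Fz7-21S, at 6 h or 24 h of treatment. According to the series, dFz7-21 is a blocking peptide of the Wnt receptor Frizzled 7, and the question is how expression changes under that block. The sources used here do not give strain, genotype, age, dose or the nature of Fz7-21S. Since no label tells whether replicates were separate cultures or animals, p-values reflect only how these samples vary, possibly for technical reasons.

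Library totals ran from 20.4 M to 33.1 M counts. Enterocyte markers (15 of 15) and epithelial markers (5 of 5) were detected in every group, whereas the mesenchymal transcripts Col1a1 and Vim were high in 3 libraries, replicate 3 of dFz7-21 at 24 h and replicates 1 and 2 of DMSO at 6 h. Summed CPM (counts relative to library depth) of 11 mesenchymal markers ran from 7.68 to 202 in DMSO at 6 h and from 9.38 to 969 with dFz7-21 at 24 h, against 4.88 to 9.58 in the other 4 groups, and Dcn and Lum were at 0 in every library. Their part in the results was not tested, but for the 7 genes values without these 3 libraries are given where a call depends on them. For other genes no such values are given. Over all genes, calls for dFz7-21 against DMSO at 6 h fell from 1704 to 698 without these libraries. Replicate 4 of Fz7-21S at 24 h stood apart in its summed epithelial markers, 11708 CPM against 8408 to 9094 CPM in the rest of its group. For genes other than the 7, no values without that library are given.

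All 7 genes lie on chromosome 8 of GRCm38, in 2 clusters 11.2 Mb apart. The Ces1 cluster spans 516 kb and holds Ces1d (Entrez 104158, chr8:93166072-93197804), Ces1e (13897, chr8:93201218-93229631), Ces1f (234564, chr8:93256236-93279766) and Ces1g (12623, chr8:93302369-93337209). The second cluster spans 416 kb and holds Ces2a (102022, chr8:104734003-104741634), Ces2c (234671, chr8:104847068-104854483) and Ces2e (234673, chr8:104926260-104934672), next to Ces3 and Ces4 genes. Each value below belongs to the whole gene model. Coding sequences of the 4 Ces1 genes were 75.6% to 81.8% identical over 6 pairs, those of the 3 Ces2 genes 83.0% to 84.3% over 3 pairs, and those of a Ces1 and a Ces2 gene 64.6% to 67.4% over 12 pairs. The Ces1 transcripts have 14 exons and the Ces2 transcripts 12.

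The 250 bases before the start of 3 genes are shown because Ces1g led the choice, while Ces2a and Ces2e had the highest levels per length in all 6 groups (sequences from RefSeq, GRCm38.p6). The Ces1g sequence is chr8:93337210-93337459 on the minus strand, with TTTATA, the reverse complement of a TATA box, in capitals. The Ces2a sequence is chr8:104733753-104734002 and that of Ces2e chr8:104926010-104926259, both on the plus strand, with the stretch that holds 2 overlapping motifs in capitals.
Ces1g: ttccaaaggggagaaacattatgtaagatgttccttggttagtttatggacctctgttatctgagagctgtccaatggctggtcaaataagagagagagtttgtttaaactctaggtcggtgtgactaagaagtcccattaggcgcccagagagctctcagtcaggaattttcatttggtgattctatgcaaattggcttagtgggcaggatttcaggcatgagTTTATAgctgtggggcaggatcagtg
Ces2a: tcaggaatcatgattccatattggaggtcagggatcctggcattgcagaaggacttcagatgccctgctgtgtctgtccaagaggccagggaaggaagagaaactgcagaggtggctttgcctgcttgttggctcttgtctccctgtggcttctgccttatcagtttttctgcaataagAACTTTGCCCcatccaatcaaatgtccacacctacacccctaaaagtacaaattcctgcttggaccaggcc
Ces2e: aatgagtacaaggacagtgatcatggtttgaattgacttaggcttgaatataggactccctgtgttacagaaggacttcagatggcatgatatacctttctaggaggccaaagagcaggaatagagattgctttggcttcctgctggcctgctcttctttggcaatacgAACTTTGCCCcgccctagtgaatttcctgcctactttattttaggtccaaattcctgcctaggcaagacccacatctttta
The promoter table held 5 of the 7 genes, without Ces1d and Ces1f. After the sequences had been seen, 5 motifs were searched on both strands in the table's windows of 250 bases before to 50 bases after the start of 27025 genes. CAAAGTT, part of the sequence bound by the HNF4 receptors, lay at 71 bases before the start of Ces2a and 81 before that of Ces2e, on the opposite strand, and was in 3.82% of all promoters. GGGCAAAG overlapped it in both genes and was in 1.63% of promoters. Outside the 7 genes, Ces2f held both motifs and Ces2g held GGGCAAAG. TATAAA was in the Ces1g window alone among the 5, on the opposite strand 26 bases before the start, and in 14.2% of all promoters. Outside the 7 genes it was also in the windows of Ces1h and Ces3b. Ces1h, Ces2f and Ces3b had few or no counts in these libraries. TTTATGG, which resembles the CDX2 motif, lay 208 bases before the Ces1g start and was in 2.76% of promoters, and TGACNNNGC, the antioxidant response motif, was in none of the 5 against 12.5% of all. The longest identical run shared by the Ces2a and Ces2e promoters was 17 bases, against 11 or fewer in the other 9 pairs. These are matches of letters in this window, not binding sites.

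Levels per length were read from the deposited nRPKM, which divide counts by gene length and library size. In DMSO at 6 h Ces2e (87.5 ± 7.46 nRPKM, SD, n = 4) and Ces2a (83.5 ± 5.29) led, followed by Ces2c (44.3 ± 4.86) and Ces1f (43.2 ± 2.88). Ces1d (8.66 ± 0.483), Ces1g (4.02 ± 0.316) and Ces1e (3.39 ± 0.159) stood far lower. The ranges of Ces2e and Ces2a over libraries overlapped, as did those of Ces2c and Ces1f. Within every library Ces2e stood above Ces2a, whereas the order of Ces2c and Ces1f varied between libraries. In DMSO at 24 h the order was Ces2a (135 ± 12.7), Ces2e (99.3 ± 8.44), Ces1f (63.2 ± 7.31), Ces2c (39.4 ± 4.68), Ces1d (17.6 ± 1.8), Ces1g (10.1 ± 1.07) and Ces1e (7.99 ± 1.03), with overlap between Ces1g and Ces1e alone among neighbours. Ces1g was nevertheless above Ces1e within every library of that group.

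With dFz7-21 at 24 h the order per length was Ces2a (248 ± 21.6 nRPKM), Ces2e (195 ± 15.6), Ces1f (168 ± 10.7), Ces2c (80.6 ± 5.97), Ces1g (35.6 ± 2.51), Ces1d (28.6 ± 3.47) and Ces1e (16.8 ± 1.07). The ranges of Ces2e and Ces1f overlapped there, and so did those of Ces1g and Ces1d. Within every library of that group Ces2e stood above Ces1f and Ces1g above Ces1d. With Fz7-21S at 24 h it was Ces2a (174 ± 16.2), Ces2e (109 ± 8.9), Ces1f (85.8 ± 7.02), Ces2c (43.2 ± 4.98), Ces1d (20.9 ± 3.57), Ces1g (15.3 ± 0.946) and Ces1e (9.22 ± 0.283), with no overlap between neighbours. The levels at 6 h with either peptide were close to those of DMSO: Ces1g averaged 4.15 ± 0.296 nRPKM with dFz7-21 and 4.31 ± 0.277 with Fz7-21S.

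**Figure D1:**
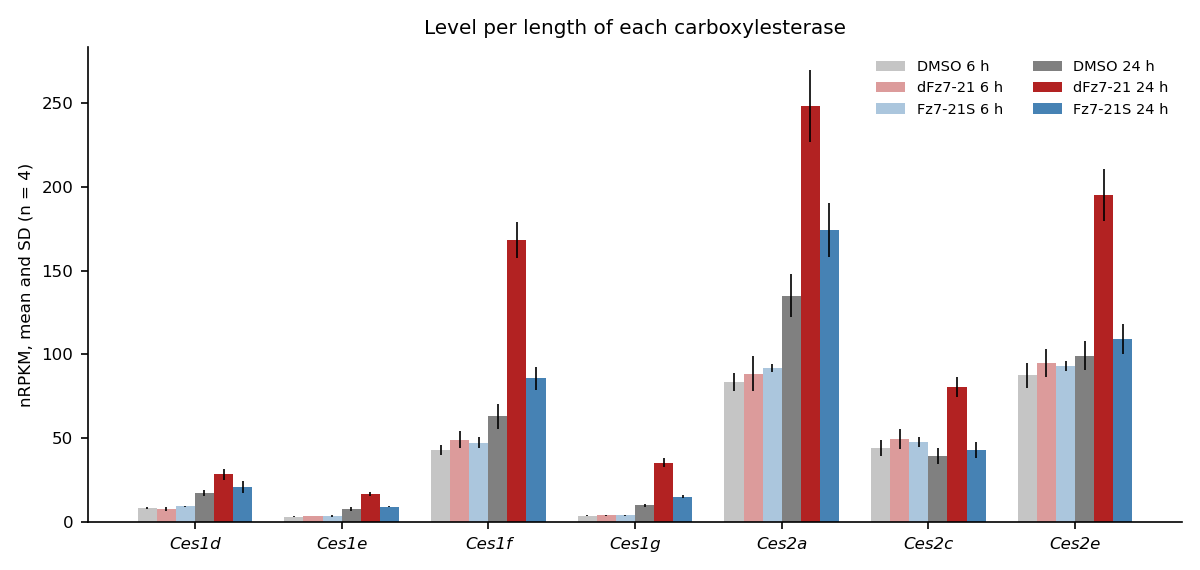
Deposited nRPKM (y axis) of the 7 genes (x axis) in 6 groups, pale bars for 6 h and full bars for 24 h, as mean with SD of 4 libraries. Ces2a and Ces2e stand highest in all groups, and Ces1g passes from 4.02 in DMSO at 6 h to 35.6 with dFz7-21 at 24 h.

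Summed over all 20 Ces genes, the level per length was 288 ± 20.4 nRPKM in DMSO at 6 h, 392 ± 36.2 in DMSO at 24 h, 804 ± 55.2 with dFz7-21 at 24 h and 478 ± 32.1 with Fz7-21S at 24 h. The 7 genes made up 94.9% to 96.1% of it as group means. Ces1g held 1.4% of the sum in DMSO at 6 h, 2.58% in DMSO at 24 h, 3.21% with Fz7-21S at 24 h and 4.43% with dFz7-21 at 24 h. Ces2c went the other way, from 15.3% in DMSO at 6 h to 10% in DMSO and with dFz7-21 at 24 h.

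Ces1g, a triglyceride hydrolase of liver and gut, was measured at 25.1, 21.4, 21.2 and 25.8 CPM in DMSO at 24 h (replicates 1 to 4). It stood at 84.5, 86.6, 75.1 and 78.3 CPM with dFz7-21 and at 35.0, 35.0, 33.5 and 39.1 CPM with Fz7-21S at that time. The 3 groups did not overlap: every dFz7-21 library was above every Fz7-21S library, and these were above every DMSO library. The log2 fold change against DMSO was 1.79 ± 0.08 (SE) with dFz7-21, a fold of 3.47, and 0.61 ± 0.08 with Fz7-21S, a fold of 1.52. Both values were used in the choice of the genes and are given without a test.

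Ces1f, a lipase of the endoplasmic reticulum in liver and fat, stood at 130.2, 118, 123 and 152 CPM in DMSO, 339, 370, 321 and 346 CPM with dFz7-21 and 162, 175, 179 and 200 CPM with Fz7-21S at 24 h. Its 3 groups did not overlap either. Ces1e, which holds beta-glucuronidase in the endoplasmic reticulum of liver, stood at 27.9, 24.0, 27.0 and 32.5 CPM in DMSO, 53.1, 57.8, 59.2 and 62.1 CPM with dFz7-21 and 31.6, 32.8, 31.3 and 34.0 CPM with Fz7-21S. Its DMSO and Fz7-21S libraries overlapped. Ces1d, the triacylglycerol hydrolase that releases stored lipid for lipoprotein assembly, stood at 37.8, 31.5, 32.5 and 38.1 CPM in DMSO, 47.7, 56.5, 55.5 and 64.3 CPM with dFz7-21 and 35.2, 44.5, 36.3 and 51.0 CPM with Fz7-21S. Its dFz7-21 libraries were all above DMSO, and the Fz7-21S libraries overlapped with both.

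Among the Ces2 genes, Ces2a, a lipid and drug ester hydrolase of liver and gut, stood at 259, 258, 247 and 303 CPM in DMSO, 449, 543, 467 and 477 CPM with dFz7-21 and 312, 344, 339 and 395 CPM with Fz7-21S at 24 h, without overlap. Ces2c, an acylglycerol hydrolase of the small intestine, stood at 82.8, 71.8, 69.6 and 88.9 CPM in DMSO, 152, 174, 158 and 148 CPM with dFz7-21 and 89.8, 89.2, 94.0 and 72.6 CPM with Fz7-21S. Ces2e, another intestinal and hepatic carboxylesterase, stood at 276, 245, 262 and 298 CPM in DMSO, 481, 576, 506 and 534 CPM with dFz7-21 and 267, 298, 308 and 328 CPM with Fz7-21S. In both genes the dFz7-21 libraries were apart from all others, while DMSO and Fz7-21S overlapped.

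**Figure D2:**
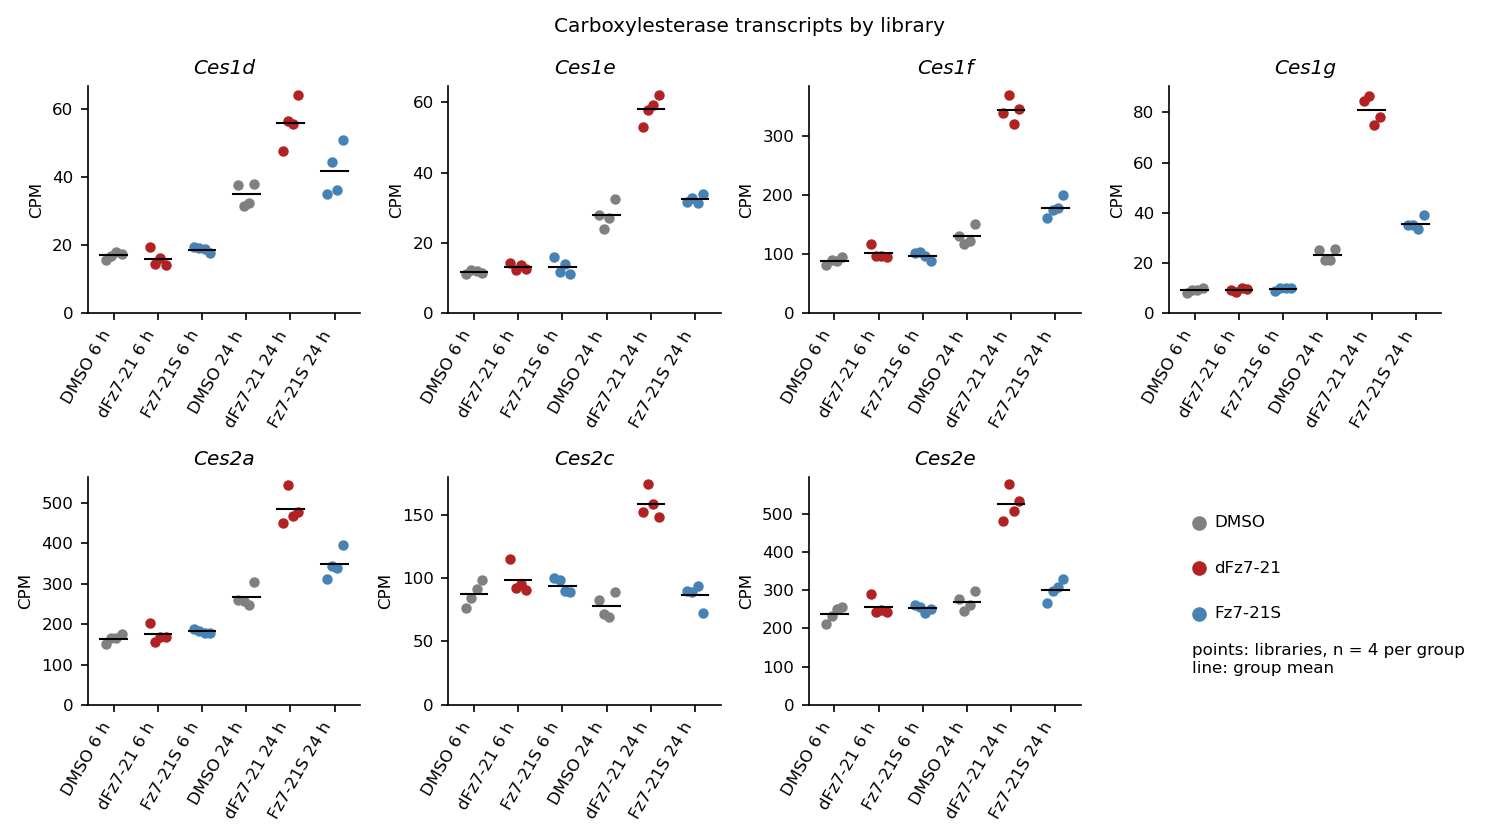
CPM (y axis, from 0) of each of the 7 genes in the 24 libraries, grouped by treatment and time (x axis), with the group mean as a line. The 6 h groups of a gene overlap, except Ces2a with Fz7-21S against DMSO, and at 24 h the dFz7-21 libraries are above all others except for Ces1d, where they overlap with Fz7-21S.

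Against DMSO at 24 h, log2 fold changes with dFz7-21 were 0.68 (Ces1d), 1.06 (Ces1e), 1.39 (Ces1f), 1.79 (Ces1g), 0.86 (Ces2a), 1.01 (Ces2c) and 0.96 (Ces2e). Of all 15429 genes tested 18.2% were higher and 35.9% changed in either direction at an adjusted p below 0.05, which is given as background alone. With Fz7-21S the values were 0.25, 0.22, 0.45, 0.61, 0.38, 0.14 and 0.15 in the same order, with 0.259% of all genes called (40, all higher). These comparisons share the DMSO libraries and selected the genes, so no call is given for the 7. The 40 calls with Fz7-21S rested on the spread pooled over 6 groups: in a fit of the 2 groups alone edgeR called 0 of 14460 genes, with 639 at an unadjusted p below 0.05, and DESeq2 on all groups called 136, 114 of them higher.

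The difference between the peptides at 24 h was not the ground of the choice, but the same peptide libraries entered that of Ces1g, whose values are therefore a description here too. The 6 other genes were all higher with dFz7-21 than with Fz7-21S (edgeR quasi-likelihood test, Benjamini-Hochberg over 15429 genes), where 16.5% of all genes tested were higher and 33.7% changed in either direction. The median over the 7, as a description, was 0.84 on the log2 scale, against -0.01 over all genes. In bulk RNA a change in the share of cells that express a gene and a change in its RNA per cell cannot be told apart.

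Ces1g averaged 81.1 ± 5.36 against 35.6 ± 2.44 CPM (SD, n = 4), a log2 fold change of 1.19 ± 0.08 (SE), given without a test. Among the other 6 genes Ces1f had the largest difference, 0.94 ± 0.08 (344 against 179 CPM, edgeR adjusted p = 3.66e-09). Ces2c (0.87 ± 0.10, edgeR adjusted p = 1.56e-07), Ces1e (0.84 ± 0.09, 1.54e-07) and Ces2e (0.80 ± 0.08, 1.68e-08) lay close together, with 95% intervals that all included 0.80. Ces2a was 0.48 ± 0.08 higher (484 against 347 CPM, edgeR adjusted p = 5.99e-05). Ces1d showed the smallest difference, 0.43 ± 0.11 with a 95% interval of 0.20 to 0.65 (edgeR adjusted p = 0.00382), and was the 1 gene whose peptide groups overlapped.

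Differences between genes were not tested. The Ces1d call was lost when only the 2 peptide groups were fitted (adjusted p = 0.0762) and against a minimum fold of 1.2 (adjusted p = 0.142). Without the 3 libraries with mesenchymal transcripts the values of the 7 genes ran from 0.43 to 1.22.

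**Figure D3:**
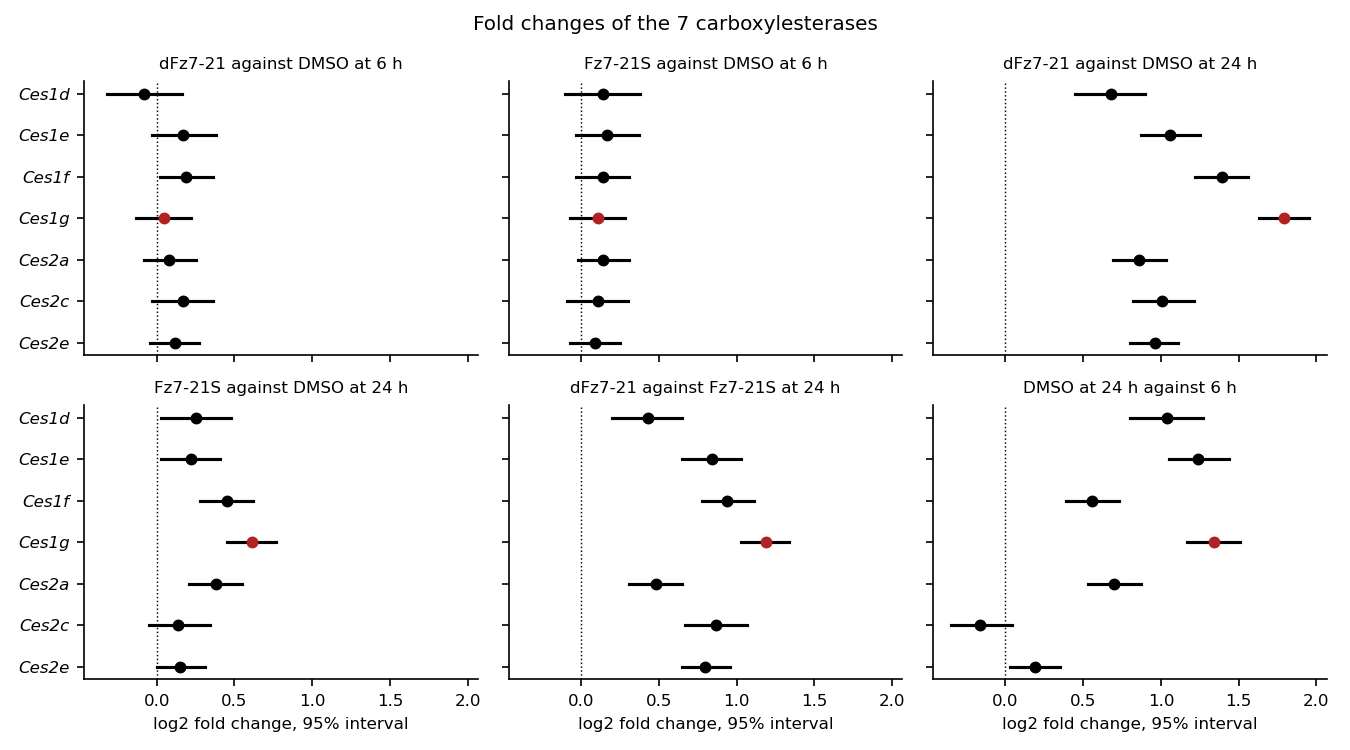
Log2 fold change (x axis) with its 95% interval for each gene (y axis) in 6 comparisons, Ces1g in red. The intervals at 6 h include 0 except that of Ces1f with dFz7-21 against DMSO (0.02 to 0.36). Those of dFz7-21 against Fz7-21S at 24 h lie above 0 for the 6 genes other than Ces1g, and Ces2c alone is below 0 in DMSO over time. Intervals of Ces1g in comparisons with 24 h libraries, and of all 7 genes against DMSO at 24 h, are descriptions without a test.

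Along the Ces1 cluster the tested genes were ordered by this difference as by position: Ces1b (0.07), Ces1c (0.33), Ces1d (0.43), Ces1e (0.84), Ces1f (0.94) and Ces1g (1.19), from 36.5 kb to 282.2 kb beyond the first gene of the cluster. Ces1b and Ces1c were not called (edgeR adjusted p = 0.709 and 0.311). This order was noticed in the data and is given as a description of 6 genes. Within 250 kb of the Ces1 cluster 1 other gene was tested, Lpcat2 (0.39 ± 0.45, edgeR adjusted p = 0.541), at under 1 CPM. Around the second cluster 24 other genes were tested, with a median of 0.05. Of these, 4 were higher (Elmo3, Pdp2, Fbxl8 and Tradd, by 0.16 to 0.34) and 3 lower (Cbfb, Terb1 and 4931428F04Rik). Over all genes tested 16.5% were higher and 33.7% changed in either direction.

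**Figure D4:**
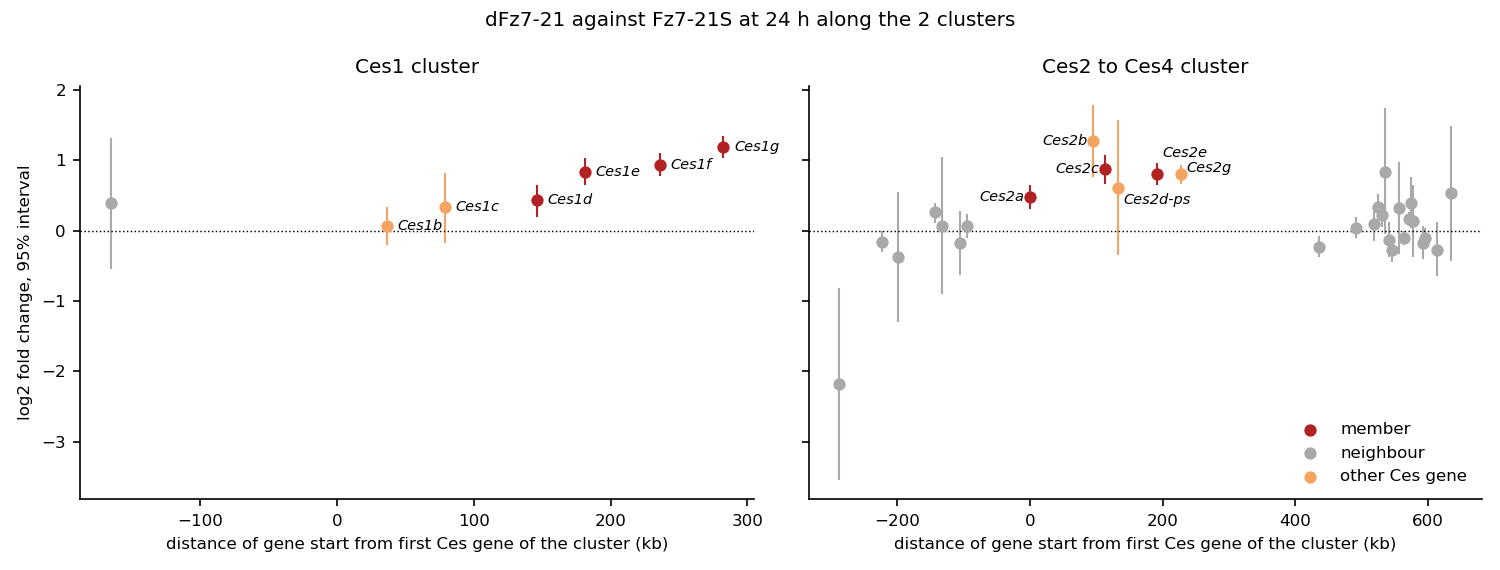
Log2 fold change of dFz7-21 against Fz7-21S at 24 h (y axis, bars for 95% intervals) against the distance of each gene start from the first Ces gene of its cluster (x axis, kb). Values run from 0.07 for Ces1b to 1.19 for Ces1g in the first panel, and in the second the Ces2 genes lie between 0.48 and 1.28 while their neighbours lie on both sides of 0.

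At 6 h none of the 7 genes was called in any comparison by edgeR. With dFz7-21 against DMSO this was 0 of 7 where 11.0% of all genes were called, with 1 gene at an unadjusted p below 0.05. With Fz7-21S against DMSO it was 0 of 7 against 0.00648% (1 gene in all), and between the peptides 0 of 7 against 7.04%, both with 0 genes at an unadjusted p below 0.05. DESeq2 called 0 of the 7 in each, where it called 2166, 4 and 1441 of all 15429 genes in the same order. The 21 log2 fold changes ran from -0.22 to 0.19, and their 95% intervals from -0.46 to 0.38.

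Ces1g stood at 8.3, 9.32, 9.22 and 10 CPM in DMSO, 9.42, 8.59, 10.1 and 9.86 CPM with dFz7-21 and 8.96, 10.3, 10.3 and 10 CPM with Fz7-21S at 6 h. The 3 groups overlapped, and the log2 fold change of dFz7-21 against DMSO was 0.05 with a 95% interval of -0.13 to 0.22. The gene nearest to a call was Ces1f, 101 ± 10.3 against 88.8 ± 5.83 CPM (0.19 ± 0.08, unadjusted p = 0.0289, edgeR adjusted p = 0.153). Ces1d was 0.22 lower with dFz7-21 than with Fz7-21S in this fit (edgeR adjusted p = 0.333) and passed the threshold when only those 2 groups were fitted (-0.23, adjusted p = 0.0471). That fit of 2 groups called 3159 of all 14537 genes tested. In the same libraries Lgr5, a stem cell marker and Wnt target, fell from 44.4 CPM in DMSO to 10.7 CPM with dFz7-21 (log2 fold change -2.05 ± 0.18, edgeR adjusted p = 3.65e-08).

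In DMSO alone, 5 of the 6 genes other than Ces1g were higher at 24 h than at 6 h, where 27.3% of all genes tested were higher and 52.2% changed in either direction. The DMSO libraries at 24 h had entered the choice of Ces1g, whose values over time are therefore a description: 9.22 ± 0.716 CPM at 6 h and 23.4 ± 2.42 at 24 h (SD, n = 4), a log2 fold change of 1.34. Ces1e rose from 11.8 ± 0.539 to 27.9 ± 3.54 CPM (1.24 ± 0.10, edgeR adjusted p = 1.11e-10). Ces1d rose from 17.1 ± 0.948 to 35.0 ± 3.48 CPM (1.04 ± 0.11, edgeR adjusted p = 3.6e-08). Neither gene's groups overlapped.

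Ces2a rose by 0.70 ± 0.08 over time in DMSO (164 to 267 CPM, edgeR adjusted p = 1.1e-07) and Ces1f by 0.56 ± 0.08 (88.8 to 131 CPM, edgeR adjusted p = 3.22e-06). Ces2e rose by 0.19 ± 0.08, from 210.5, 232, 250 and 255 CPM to 276, 245, 262 and 298 CPM, with overlapping groups (edgeR adjusted p = 0.0373). The Ces2e call was lost with no filter on low counts (0.18, adjusted p = 0.0647), against a minimum fold of 1.2 (adjusted p = 0.832), and without the 3 libraries with mesenchymal transcripts (0.10, adjusted p = 0.42). It was also lost without DMSO 6 h replicate 1 (0.14, adjusted p = 0.153), without DMSO 24 h replicate 4 (0.14, adjusted p = 0.145), without DMSO 6 h replicate 2 (adjusted p = 0.0802) and without DMSO 24 h replicate 1 (adjusted p = 0.094). The same held without dFz7-21 6 h replicate 3 or 4, Fz7-21S 6 h replicate 2 or 3, dFz7-21 24 h replicate 4 or Fz7-21S 24 h replicate 2 (adjusted p = 0.05 to 0.0558). Ces2c was the 1 gene with a lower mean at 24 h, 76.0, 84.2, 91.1 and 98.4 CPM at 6 h and 82.8, 71.8, 69.6 and 88.9 CPM at 24 h. Its difference, -0.16 with a 95% interval of -0.35 to 0.04, was not called (edgeR adjusted p = 0.17).

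The deposited counts hold only uniquely aligned reads, so stretches shared with other genes could have lost reads. Of all 50-base stretches of its transcripts, Ces2c shares 36.1% with transcripts of other genes, most of them (32.7%) with the transcribed pseudogene Ces2d-ps, and Ces2a shares 17.3%, mainly with the gene model Gm7208 (16.3%). The shares were 3.3% for Ces2e, 2.97% for Ces1e, 1.67% for Ces1g, 1.08% for Ces1d and 0.903% for Ces1f. With stretches of 75 bases they were 22.1% for Ces2c, 11.4% for Ces2a and 0 for Ces1g, Ces1d and Ces1f. Levels of Ces2c and Ces2a are therefore uncertain in size. The sources used here do not give the read length. Ces2d-ps itself stayed between 0.0476 and 1.3 CPM in the 24 libraries and was not called in a tested comparison.

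Of the 13 other Ces genes, 5 had enough reads to be tested. Ces2g, a relative next to Ces2e and Ces2f, was 0.81 ± 0.07 higher with dFz7-21 than with Fz7-21S at 24 h (72.8 against 41.6 CPM, edgeR adjusted p = 2.38e-09). It rose by 0.66 ± 0.07 over time in DMSO (29.6 to 46.8 CPM, edgeR adjusted p = 1.6e-08). With Fz7-21S at 24 h Ces2g stood at 42.3, 44.0, 43.6 and 36.6 CPM, below all 4 DMSO libraries (44.4 to 49.7 CPM), whereas the means of the 7 genes were all higher with Fz7-21S than in DMSO. At 6 h it was 0.21 ± 0.07 higher with dFz7-21 than in DMSO without overlap, just outside the threshold (edgeR adjusted p = 0.0504).

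Ces2b was measured by 14 to 59 counts per library. It stood at 2.6, 2.57, 1.9 and 2.4 CPM with dFz7-21 against 0.912, 0.928, 1.27 and 0.751 CPM with Fz7-21S at 24 h (1.28 ± 0.25, edgeR adjusted p = 0.000264). It was also the 1 Ces gene called at 6 h, higher with dFz7-21 than with Fz7-21S (1.01 ± 0.26, 1.48 against 0.737 CPM, edgeR adjusted p = 0.0153), although not against DMSO (edgeR adjusted p = 0.318). Ces1b rose over time in DMSO from 4.3 to 8.58 CPM (0.99 ± 0.14, edgeR adjusted p = 1.57e-06). Ces1c stayed between 1.78 and 4.33 CPM and was not called over time (edgeR adjusted p = 0.156). Ces1a, Ces1h, Ces2f, Ces2h, Ces3a and Ces5a had at most 14 counts in a library, and Ces3b and Ces4a had 0 counts in all 24, where 3 counts correspond to 0.0906 to 0.147 CPM.

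Lists of related genes gave the setting of the peptide difference at 24 h, with 16.5% of all genes higher, 2651 of 15429 lower and a median of -0.01. Of 40 drug metabolism genes, 31 were higher with dFz7-21 than with Fz7-21S and 0 lower (median 0.46). Among them Ugt2b34, a glucuronidating enzyme, was 0.54 ± 0.10 higher (edgeR adjusted p = 0.000316). Ugt1a1, Ugt1a6a and Ugt1a7c were 0.48, 0.43 and 0.46 higher (edgeR adjusted p = 7.15e-07, 1.88e-05 and 3.86e-07). These 3 share their last exons, and whether reads there were split between them or counted for each was not tested. Their levels were close, at 1284, 1113 and 1419 CPM with dFz7-21 at 24 h. They may therefore not be separate results, also within the 31 of 40. Of 27 triglyceride and sterol handling genes, 20 were higher and 1 lower, Soat1 (median 0.54). Acsl5, which activates fatty acids, rose by 0.33 ± 0.06 (edgeR adjusted p = 0.000108) and Apob, the chylomicron scaffold, by 0.51 ± 0.18 (edgeR adjusted p = 0.0366), while Apoa1 (0.22, adjusted p = 0.224) and Fabp2 (0.18, adjusted p = 0.301) were not called. The Fz7-21S libraries were widely spread here: Apob 243 to 592 CPM (median 527), Apoa1 1101 to 2145 (1396) and Fabp2 712 to 1216 (818). Each of these 3 genes had overlapping peptide groups, with Apob at 558 to 750.1 CPM under dFz7-21.

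Of 21 other tested hydrolases 9 were higher and 4 lower between the peptides (median 0.22). Faah, which hydrolyses fatty acid amides, was higher by 0.58 ± 0.05 (edgeR adjusted p = 4.02e-09) and Pnpla2, the adipose triglyceride lipase, fell by 0.20 ± 0.06 (edgeR adjusted p = 0.0107). Esd (-0.11, adjusted p = 0.411) and Abhd12 (0.09, adjusted p = 0.139) were not called. This list moved in both directions, in contrast to the 7 genes and the drug metabolism list, although no test compared the lists.

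Of 22 nuclear receptors and other regulators 17 were higher with dFz7-21 than with Fz7-21S at 24 h and 0 lower (median 0.31), where 16.5% of all genes were higher. Ppara, a fatty acid receptor, was higher by 1.12 ± 0.14 (122 against 55.9 CPM, edgeR adjusted p = 8.73e-07) and Nr1h4, the bile acid receptor FXR, by 0.95 ± 0.08 (70.4 against 36.4 CPM, edgeR adjusted p = 6.44e-09). Nr1i2, the xenobiotic receptor PXR (0.26 ± 0.05, edgeR adjusted p = 0.00019), Nr1i3, the receptor CAR (0.24 ± 0.08, 0.0311), Nfe2l2, the oxidative stress factor NRF2 (0.25 ± 0.04, 8.78e-05), and Hnf4a, an enterocyte and hepatocyte regulator (0.39 ± 0.07, 5.15e-05), differed by less. Cdx1 and Cdx2 were not called (edgeR adjusted p = 0.537 and 0.181). At 6 h 6 of the 22 were higher with dFz7-21 than in DMSO and 0 lower, where 933 of 15429 genes were higher. Among them were Hnf4a (0.41 ± 0.07, edgeR adjusted p = 0.000114), Cdx2 (0.35 ± 0.07, 0.00139), Nfe2l2 (0.16 ± 0.04, 0.0184) and Nr1h4 (0.27 ± 0.09, 0.045). The DMSO group at 6 h includes libraries with mesenchymal transcripts, and no values without them are given here. None of the 7 genes was called in that comparison, and a link of these regulators to the 7 genes was not tested. Against Fz7-21S at 6 h Nfe2l2 (0.12, edgeR adjusted p = 0.108) and Nr1h4 (0.14, 0.458) were not called.

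Over time in DMSO 36 of 40 drug metabolism genes were higher and 0 lower (median 0.71), 19 of 27 triglyceride and sterol handling genes were higher and 3 lower (median 0.27), 12 of 21 other hydrolases were higher and 4 lower (median 0.48), and 14 of 22 regulators were higher and 1 lower (median 0.22), where 27.3% of all genes were higher. Nr1i2 (0.33 ± 0.05, edgeR adjusted p = 2.99e-06) and Ppara (0.72 ± 0.14, 0.000105) rose, while Hnf4a did not change beyond its error (0.04 ± 0.07, 0.66). With Fz7-21S against DMSO at 24 h 3 of 40 drug metabolism genes were past the threshold (Cbr1, Cbr3 and Gstm1), by edgeR in the fit of all groups. Over all genes 0.259% were called there. This comparison entered the choice of Ces1g, and edgeR called 0 of 14460 genes with only its 2 groups fitted, so the count is a description.

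Enterocyte markers in sum, like the mean of each of the 7 genes, stood highest with dFz7-21 at 24 h. Over time in DMSO the marker sum rose, whereas the mean of Ces2c did not. The summed level of the markers was 5947 ± 717 CPM in DMSO at 6 h. It was 7150 ± 575 CPM in DMSO, 11572 ± 723 with dFz7-21 and 8147 ± 634 with Fz7-21S at 24 h (SD, n = 4). Of the 15 markers 11 were higher with dFz7-21 than with Fz7-21S at 24 h and 0 lower (median 0.56). Alpi, the brush border alkaline phosphatase, was higher by 1.16 ± 0.10 (edgeR adjusted p = 6.05e-09) and Fabp1 by 0.52 ± 0.18 (edgeR adjusted p = 0.0274). Apoa1, Apoa4, Fabp1 and Fabp2 are on both this list and the triglyceride list. The 8 crypt stem cell markers were all lower (median -1.79), Lgr5 with 3.83 against 80.2 CPM and Olfm4 with 67.9 against 1275 CPM (edgeR adjusted p = 2.14e-13 and 1.2e-15). Between the peptides at 24 h 2551 of all 15429 genes tested were higher and 2651 lower. Over time in DMSO 11 of the 15 enterocyte markers were higher and 3 lower, Apoa4, Vil1 and Krt20 (median 0.59). There 27.3% of all genes were higher.

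Set against the mean log2 CPM of the 15 enterocyte markers in the same library, Ces1g lay at -4.35 ± 0.12 in DMSO at 6 h (SD, n = 4), -3.56 ± 0.05 in DMSO at 24 h, -3.11 ± 0.14 with Fz7-21S at 24 h and -2.49 ± 0.08 with dFz7-21 at 24 h. Ces1f moved from -1.08 ± 0.04 in DMSO at 24 h to -0.41 ± 0.03 with dFz7-21. Ces1d lay at -2.98 ± 0.07 in DMSO and -3.03 ± 0.15 with dFz7-21 at 24 h. Ces2c lay at -1.12 ± 0.06 in DMSO at 6 h and lower, at -1.82 ± 0.05, in DMSO at 24 h. These differences are descriptions, and the part of the enterocyte share in the changes of the 7 genes was not tested.

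**Figure D5:**
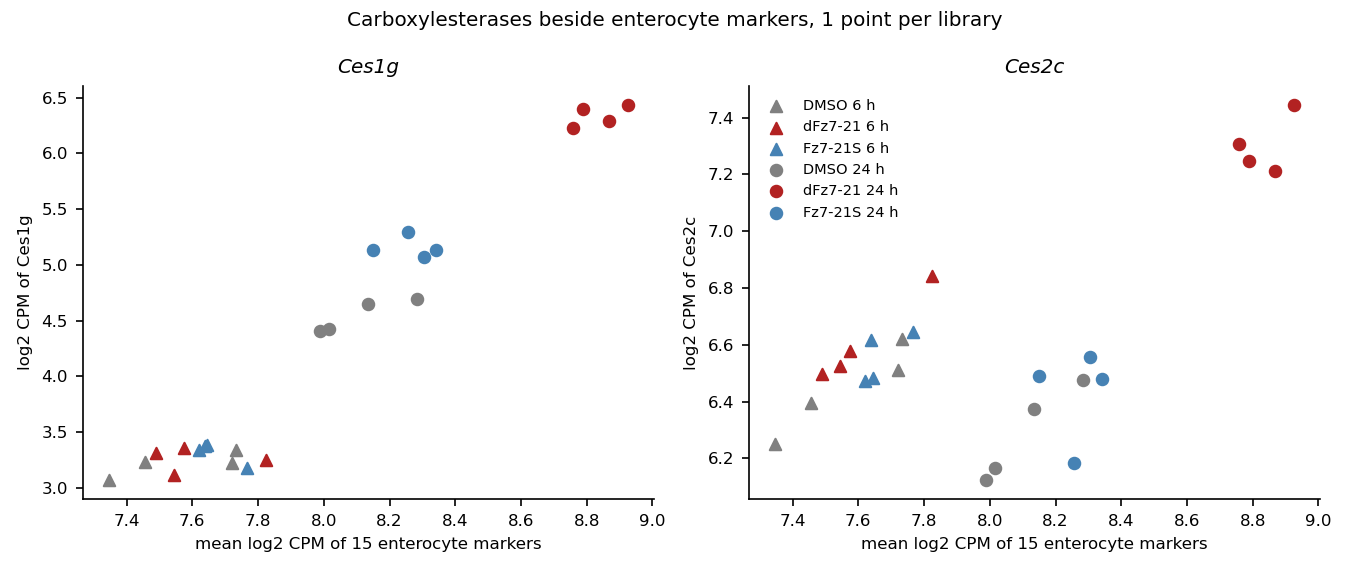
Log2 CPM of Ces1g and Ces2c (y axes) against the mean log2 CPM of 15 enterocyte markers (x axes), 1 point per library, triangles for 6 h and circles for 24 h. Ces1g climbs with the marker mean from 6 h to 24 h and from DMSO to dFz7-21, whereas Ces2c at 24 h is no higher in DMSO and Fz7-21S than at 6 h.

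Over the 24 libraries, log2 CPM of the 21 pairs of the 7 genes correlated with r from 0.44 (Ces1d with Ces2c) to 0.99 (Ces1g with Ces2a), with a median of 0.92. Within groups, after the group means were removed, r ran from 0.13 to 0.89 with a median of 0.54. Ces2a and Ces2e had the highest value within groups, 0.89, and Ces1e and Ces1g the lowest, 0.13. These are descriptions over libraries that fall into 6 groups and share their depth and cell mixture, so no p is given.

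Among 8685 tested genes outside the family that averaged 4 or more in log2 CPM, the 6 most like Ces1g over the 24 libraries were Dgat1, Hsd17b4, Cmbl, Ugt1a1, Prpsap1 and Gsr, each with r = 0.99. Dgat1, which makes the last bond of triglycerides, stood at 118, 224, 436 and 260.2 CPM as group means in DMSO at 6 h, DMSO at 24 h, dFz7-21 at 24 h and Fz7-21S at 24 h. Cmbl, a cytosolic hydrolase of ester prodrugs, stood at 18.1, 39.5, 81.4 and 48.4 CPM in the same groups. Between the peptides at 24 h the log2 fold change was 0.75 for both, 0.36 for Hsd17b4, an enzyme of peroxisomal fatty acid oxidation, 0.56 for Prpsap1, a partner of phosphoribosyl pyrophosphate synthetase, and 0.28 for Gsr, glutathione reductase. These genes were picked for their likeness over the same libraries, so the values carry no test.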

How the data were processed

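Polyadenylated RNA of 24 organoid samples was analysed, 4 per group, with groups and replicate numbers from the sample titles. The authors deposited for each sample a count of reads aligned uniquely to each gene model and an RPKM adjusted by a size factor (nRPKM), per the file headers. The submitters' processing notes name GSNAP and GRCm38. The sources used here do not give versions, annotation, strand or filters. The 7 genes and all lists were chosen with earlier results of these data known.

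The deposited counts entered edgeR 4.0.16 (robust quasi-likelihood F test, TMM, filterByExpr, 15429 genes) in R 4.3.3, in a single fit of 24 libraries and 6 groups, called at a Benjamini-Hochberg adjusted p below 0.05. CPM are TMM-normalised, log2 CPM use a prior count of 2, and nRPKM served only for levels per length. Totals were 20.4 M to 33.1 M, and 3 counts correspond to 0.0906 to 0.147 CPM, a floor for counting error only. On simulated data for dFz7-21 against DMSO at 6 h (15429 genes, 200 changed) 98% of 2-fold and 54% of 1.5-fold changes were recovered. IDs were paired with symbols through RefSeq (31049) and GENCODE (78), and 5401 stayed unnamed. Shared stretches and coding identity were computed from GENCODE vM21 transcripts.

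Named were the 7 genes, the other Ces genes, the 4 most abundant genes of each list, 6 set regulators, the 6 genes most like Ces1g, and 6 markers. Genes named beside counts of 5 or fewer were chosen after their values were seen. Alternatives were RLE factors, no filter, DESeq2 1.42.0, a replicate block, the groups compared alone, a minimum fold of 1.2, and fits without 3 or each single library.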

Additional observations from a re-analysis of the deposited data

Results flagged for a closer look

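In 2 of 42 sets of 4 libraries, 1 library stood far from the other 3, where chance gives about 1 in 20. Ces1f in dFz7-21 at 6 h was 117 CPM in replicate 1 against 94.9 to 97.0 CPM in the others. Ces2e in the same library was 291 CPM against 244 to 248 CPM. Without that library 3 uncalled differences between the peptides at 6 h changed sign, as given with the other settings.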

How the results depend on the processing

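Of 1519 values of the 7 genes under other settings, 1498 kept their direction and, where calls were followed, their side of the threshold. Of the rest, 15 lost a call, 1 gained it and 5 turned direction, all 5 at uncalled 6 h differences near 0. The 1519 include the 24 h values against DMSO and Ces1g over time in DMSO, where only the direction was followed. Between the peptides at 6 h, 1 of the 7 genes was called when only the groups compared were fitted, where 3159 of all 14537 genes tested were. The values that turned were Ces1g against DMSO with dFz7-21 (-0.02) and Ces2c with Fz7-21S (-0.01), both without the 3 libraries with mesenchymal transcripts, and, between the peptides at 6 h over single libraries left out, Ces1f (-0.02 to 0.08), Ces2c (-0.03 to 0.09) and Ces2e (-0.04 to 0.05). The cause was not tested. The lost calls were Ces1d between the peptides at 24 h and Ces2e over time in DMSO, given with those results. With the replicate number as a block, the 6 genes other than Ces1g were called between the peptides at 24 h, where 5177 of all 15429 genes were. In that setting 5 of them were called in DMSO over time, where 8095 of all genes were. At 6 h it called 0 of the 7 genes. Over all genes it called 1720 there for dFz7-21 against DMSO, 1 for Fz7-21S against DMSO and 1075 between the peptides. The replicate numbers did not pair libraries: same-numbered libraries correlated by -0.516 to 0.32 (median 0.0127), and 6 of 24 were most alike to their own number. Counts over all genes that moved by over 1.5 times were, for the peptides at 24 h, 5202 against 2305 with only those groups fitted and 1689 at a minimum fold of 1.2; for dFz7-21 against DMSO at 6 h, 1704 against 3640 and 259 in the same settings and 698 without the 3 libraries; for the peptides at 6 h, 1086 against 3159 and 121 in those settings; and for dFz7-21 against DMSO at 24 h, 5537 against 2047 at the minimum fold. DMSO over time went from 8058 to 4566 there. Fz7-21S against DMSO at 24 h had 40, against 0 with only those groups, 2 at the minimum fold and 136 by DESeq2, and at 6 h 1, against 0 to 4.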
